A study of Homo sapiens with 12 samples.

Results

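The comparison described here set 2 siRNAs against the same gene side by side. U251, a long-established human cell line, derives from a glioblastoma, a tumor of glial origin. All cells were wild-type U251 and were transfected with siPDL1-1 or siPDL1-2, which are separate siRNAs directed at *PD-L1*, or with a control siRNA (siNC). Of the 12 RNA-seq libraries of the *PD-L1* experiment, 4 were compared, 2 with siPDL1-1 and 2 with siPDL1-2, all from cells that received 100 U/ml IFNγ for 24 h, starting 48 h after transfection. They were chosen by their labels. The 2 siNC libraries with IFNγ and the 6 libraries of unstimulated cells (2 for each siRNA) are given beside them. The study's methods describe the libraries of a condition as 2 independent experiments. All values come from a single cell line in culture, and a knockdown by siRNA is transient and leaves the gene itself intact. The question was how far the transcriptomes of cells treated with either siRNA differed once IFNγ had induced the target.

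IFNγ, a type II interferon, binds its own receptor and signals through the kinases JAK1 and JAK2. The STAT dimers they activate bind GAS elements in promoters and induce, among others, *PD-L1*, *IDO1*, the CXCR3 chemokines, guanylate binding proteins and MHC genes. Type I interferons (IFNα and IFNβ) and type III interferons (IFNλ) signal through a complex with STAT2 and IRF9 that binds ISRE elements and induces the 2′-5′ oligoadenylate synthetases (OAS), IFIT proteins, MX proteins and ISG15. Many genes answer both pathways. Double-stranded RNA in the cytoplasm is sensed by RIG-I and MDA5, which signal through MAVS to induce type I and type III interferons. An siRNA is itself a short double-stranded RNA that acts through Argonaute proteins.

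Each of the 12 libraries held between 17101069 and 55657393 reads on genes. The siPDL1-1 libraries with IFNγ held 36339967 and 21870032 reads and those of siPDL1-2 held 17101069 and 30679665. The shallowest library of the experiment was thus on the siPDL1-2 side. Values are the authors' normalized read counts scaled to library size (CPM), in which 1 read was worth 0.0284 and 0.0470 CPM with siPDL1-1 and 0.0586 and 0.0331 CPM with siPDL1-2. The cells expressed *VIM*, *CD44*, *SOX2*, *NES*, *EGFR* and *PDGFRA*, genes of glioblastoma and astrocytic cells, whereas *OLIG2* did not exceed 0.165 CPM and *AQP4* did not exceed 0.364 CPM in the 4 libraries. The microglial and T cell genes *AIF1*, *CD3D*, *CD3E*, *CD3G* and *TRAC* had no reads in these libraries.

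*PD-L1*, listed as *CD274* (ENSG00000120217), lies on chromosome 9 (GRCh38, plus strand, 5450503 to 5470566). After IFNγ, *CD274* measured 60.9 and 66.7 CPM with siPDL1-1, 37.5 and 35.0 CPM with siPDL1-2, and 71.2 and 76.0 CPM with siNC. Both siPDL1-1 libraries lay above both siPDL1-2 libraries and below both siNC libraries. The target was thus higher with siPDL1-1 than with siPDL1-2, with a ratio of mean CPM of 1.76. The fitted log2 fold change, on the log2(CPM + 1) scale, was 0.80 (limma, FDR = 5.03e-05, standard error 0.073). Against siNC, the log2 fold change with siPDL1-1 was -0.20 and was not called (FDR = 0.0604), whereas *CD274* was called lower with siPDL1-2 (FDR = 2.79e-05). Both of these comparisons share the siNC libraries. In unstimulated cells the order of the siRNAs was the opposite, with 2.67 and 2.73 CPM for siPDL1-1 and 3.57 and 3.45 CPM for siPDL1-2, a log2 fold change of -0.29 that was below the fold change threshold (FDR = 0.00865). The 2 siRNAs therefore did not lower their target to the same level after IFNγ, and every difference below is between cells with unequal residual *CD274*. The part of that inequality in the other differences was not tested.

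Of 17148 genes tested after IFNγ, 362 were differentially expressed between siPDL1-1 and siPDL1-2 at FDR < 0.01 and fold change > 1.5. A total of 296 genes (1.73% of those tested) were higher with siPDL1-1 and 66 (0.385%) were lower. The ranges of the 2 groups did not overlap for any of the 362, which the thresholds nearly imply and which is no added support. The share without overlap over all genes was not counted. Large differences went mostly upward. On the log2(CPM + 1) scale, 104 genes were more than 2-fold higher and 27 more than 4-fold higher with siPDL1-1. Against these, 9 genes were more than 2-fold lower and 1 more than 4-fold lower. The median log2 fold change was 0.82 over the genes called higher and -0.72 over those called lower, while over all genes tested it was -0.001, with 49.8% of genes positive. Without siPDL1-2 replicate 1 the numbers called higher and lower were 195 and 29, and without siPDL1-2 replicate 2 they were 180 and 33.

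**Figure D1:**
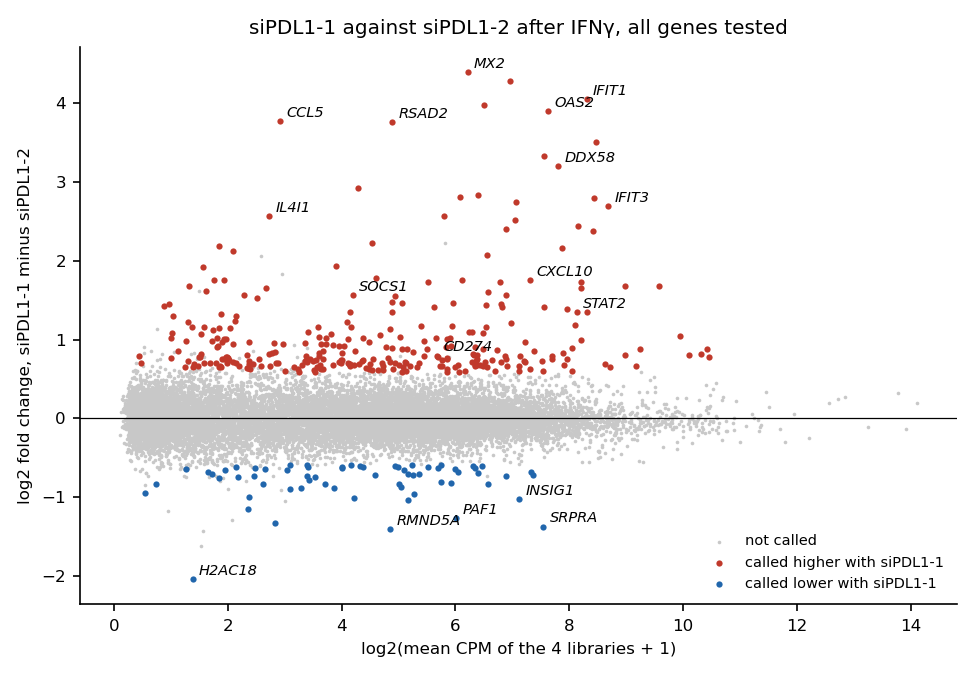
Log2 fold change of siPDL1-1 minus siPDL1-2 after IFNγ (y axis) against log2 of the mean CPM of the 4 libraries plus 1 (x axis), with 1 point per gene tested and red and blue for genes called higher and lower (chromosome Y left out of these). The upper part is led by interferon-stimulated genes from *CCL5* at low level to *IFIT3* at high level, and the largest decrease, *H2AC18*, is at low level.

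The 15 genes with the largest increase with siPDL1-1 were antiviral interferon-stimulated genes, the RNA sensor *DDX58* and the chemokine *CCL5*. *MX2* (ENSG00000183486), a GTPase that blocks the nuclear import of viral genomes, measured 144 and 138 CPM with siPDL1-1, 5.51 and 5.98 CPM with siPDL1-2, and 4.16 and 4.07 CPM with siNC. The siPDL1-2 libraries sat within 2 CPM of the siNC libraries, and both were far below the siPDL1-1 libraries. The ratio of mean CPM between the siRNAs was 24.5, and the fitted log2 fold change, on the log2(CPM + 1) scale, was 4.39 (limma, FDR = 8.61e-11, standard error 0.085). *MX1*, its paralog on the same chromosome, measured 4.14 and 4.19 CPM with siPDL1-1 and 3.46 and 3.93 CPM with siPDL1-2, and was not called (log2 fold change 0.14, FDR = 0.504).

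The OAS enzymes make 2′-5′ oligoadenylates when they bind double-stranded RNA. *OAS1* measured 239 and 234 CPM with siPDL1-1 against 10.4 and 12.1 CPM with siPDL1-2 (ratio of mean CPM 21.0, fitted log2 fold change 4.28). *OAS2* measured 372 and 368 against 25.0 and 22.6 CPM (log2 fold change 3.90). *OAS3* measured 630 and 583 against 88.0 and 84.7 CPM (log2 fold change 2.80), and the catalytically inactive *OASL* 173 and 165 against 9.15 and 10.4 CPM (log2 fold change 3.98). In each of these genes the 2 groups were far apart and the siNC libraries lay close to siPDL1-2 (11.4 and 10.8 CPM for *OAS1*, 16.9 and 17.7 CPM for *OAS2*). Of this list, 4 of the 5 genes tested were higher and none lower. *OAS1*, *OAS2* and *OAS3* are neighbours on the plus strand of chromosome 12 (112906783 to 113011723).

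The IFIT proteins bind viral RNA and block its translation. *IFIT1* measured 581 and 613 CPM with siPDL1-1, 34.2 and 35.6 CPM with siPDL1-2, and 52.9 and 51.6 CPM with siNC (log2 fold change between the siRNAs 4.06, standard error 0.060, FDR = 2.98e-11). *IFIT2* measured 645 and 659 against 55.4 and 57.5 CPM (log2 fold change 3.51) and *IFIT3* 700 and 721 against 105 and 113 CPM (log2 fold change 2.69). The membrane proteins *IFITM1*, *IFITM2* and *IFITM3*, which hinder viral entry, differed less, with 1351 and 1291 against 620 and 654 CPM for *IFITM1* and log2 fold changes of 0.60 and 0.83 for *IFITM2* and *IFITM3*. Of the 9 members of this list, 7 were higher and none lower, and the more distant *IFITM10* measured 7.35 and 5.79 against 6.10 and 6.74 CPM. *IFIT1*, *IFIT2* and *IFIT3* overlap the opposite-strand gene *LIPA* (mean 133 CPM), and the counting did not use strand to assign shared reads.

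The ISG15 system, other effectors, PARPs and APOBEC3 enzymes belong to the same response. For the ubiquitin-like modifier *ISG15*, the values were 616 and 527 CPM with siPDL1-1 against 105 and 113 CPM with siPDL1-2 (log2 fold change 2.38). Its ligase *HERC5* measured 145 and 147 against 20.2 and 18.9 CPM (log2 fold change 2.84) and its protease *USP18*, also a brake on the type I interferon receptor, 118 and 115 against 16.1 and 15.4 CPM (log2 fold change 2.81). Among 8 genes of ISG15 conjugation, 6 were higher. Of 37 other antiviral effectors tested, 32 were higher, with a median log2 fold change of 1.21 over the list. These include *RSAD2* (viperin, log2 fold change 3.76), its neighbour *CMPK2* (2.92), *IFI44L* (3.33), *IFI44* (2.74) and *IFI6* (2.44), and besides *MX1* the members *TRIM34*, *SLFN11*, *LGALS3BP* and *MOV10* were not called. *RSAD2* and *CMPK2* overlap on opposite strands, so a part of their reads may be shared. The interferon-linked ADP-ribosyltransferases *PARP12*, *PARP10* and *PARP14* had log2 fold changes of 1.57, 1.08 and 0.81, and 4 of 8 genes of their list were higher. Of 6 APOBEC3 deaminases tested, *APOBEC3G* was the 1 called (log2 fold change 0.61), and its call was lost without siPDL1-2 replicate 1 (FDR = 0.0195), without siPDL1-2 replicate 2 (FDR = 0.0127) and, through the fold change, without siPDL1-1 replicate 1 (log2 fold change 0.55).

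**Figure D2:**
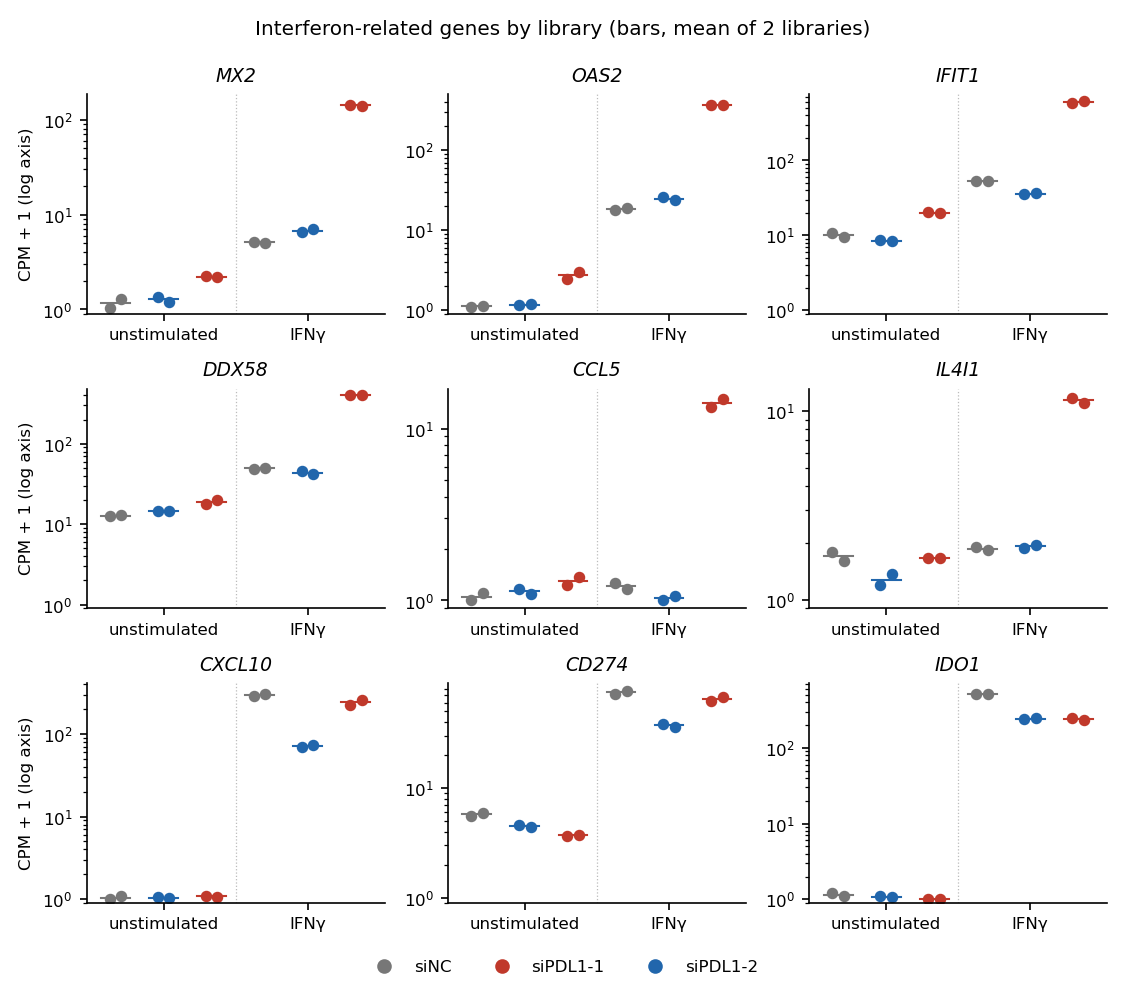
CPM plus 1 (log axis) in all 12 libraries for 9 genes, unstimulated on the left and with IFNγ on the right of each panel, with 1 point per library, a bar at the mean of 2 libraries, and colors for siNC (grey), siPDL1-2 (blue) and siPDL1-1 (red). After IFNγ, *MX2*, *OAS2*, *IFIT1*, *DDX58*, *CCL5* and *IL4I1* stand apart with siPDL1-1, *CXCL10* and *CD274* are lowest with siPDL1-2, and *IDO1* is equally low with both.

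Sensors of foreign nucleic acid were part of the difference. *DDX58*, which encodes RIG-I, measured 402 and 404 CPM with siPDL1-1, 44.4 and 41.0 CPM with siPDL1-2 and 47.9 and 49.0 CPM with siNC, a log2 fold change between the siRNAs of 3.21 (standard error 0.062, FDR = 8.61e-11). *IFIH1*, which encodes MDA5, measured 191 and 205 against 37.2 and 35.9 CPM (log2 fold change 2.40). *ZBP1*, a sensor of Z-form nucleic acid that can trigger necroptosis, was nearly silent with siPDL1-2 (0.235 and 0.364 CPM) and measured 5.19 and 4.66 CPM with siPDL1-1. The kinase PKR (*EIF2AK2*, 721 and 810 against 252 and 225 CPM) and the RIG-I-like helicase *DHX58* (22.8 and 22.4 against 5.57 and 4.79 CPM) were higher as well. Of 17 genes of this list, 10 were higher and none lower, whereas the adaptors and kinases *MAVS*, *TICAM1*, *STING1* and *TBK1* had log2 fold changes between 0.06 and 0.37 and were not called. At an unadjusted p under 0.05, 13 of the 17 were higher and none lower, beside 2327 higher and 2167 lower of all 17148 genes. The edgeR quasi-likelihood test called 11 higher and none lower.

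Interferon transcripts themselves were rare. *IFNL1*, a type III interferon, measured 1.67 and 1.69 CPM with siPDL1-1 and had no reads in either siPDL1-2 library. *IFNL2* measured 0.794 and 0.659 CPM with siPDL1-1 and likewise had no reads with siPDL1-2. Both were called higher, but *IFNL2* and *IFNL3* are near-identical copies between which reads can be split. *IFNB1*, the type I interferon of most cell types, measured 0.511 and 1.22 CPM with siPDL1-1 against 0.0586 and 0 CPM with siPDL1-2. Its groups did not overlap, yet it missed the FDR threshold (log2 fold change 0.83, FDR = 0.0118 from limma). In the siNC libraries *IFNB1* was at 0.0375 and 0.0415 CPM, and *IFNL2* had no reads. The receptor genes *IFNAR1*, *IFNAR2*, *IFNGR1*, *IFNGR2*, *IFNLR1* and *IL10RB* had log2 fold changes between -0.20 and 0.31, none of them called. The 3 interferon genes fell below the 1 CPM set for naming single genes and were chosen after their values were seen.

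Most signal transduction genes of the interferon pathway were not called. *STAT2*, the subunit that marks the ISRE-binding complex of type I and type III interferons, measured 416 and 391 CPM with siPDL1-1 and 161 and 155 CPM with siPDL1-2 (log2 fold change 1.35, standard error 0.057, FDR = 6.89e-08). The feedback inhibitor *SOCS1* measured 26.6 and 26.4 against 7.86 and 8.79 CPM (log2 fold change 1.56), the kinase *JAK2* 94.9 and 108 against 58.2 and 56.4 CPM (log2 fold change 0.81), and *STAT5A* 26.4 and 23.5 against 14.1 and 14.8 CPM (log2 fold change 0.74). These 4 of 19 genes tested were higher. *IRF9* (0.45), *IRF7* (-0.17) and *IRF1* (-0.13), the transcription factor that IFNγ induces directly, were not called. *SOCS1* overlaps the opposite-strand gene *RMI2* (mean 12.2 CPM).

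Over the 10 lists of interferons, sensors, signaling genes and antiviral effectors, 71 of 123 genes tested (57.7%) were higher with siPDL1-1 and none lower, beside 1.73% and 0.385% of all genes. The median log2 fold change of the 123 was 0.80. At an unadjusted p under 0.05, 94 were higher and 4 lower, beside 2327 and 2167 of all 17148 genes. The edgeR quasi-likelihood test called 74 higher and none lower. These lists were written with earlier results of these data known and are not independent evidence of a direction. The same list medians against siNC lay between 0.08 and 3.48 with siPDL1-1 and between -0.16 and 0.10 with siPDL1-2, and both of these comparisons share the siNC libraries.

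Promoter sequences that hold the ISRE core are shown for some called genes and for *MX1*, to place the difference beside known interferon elements. They are RefSeq promoters of GRCh38.p14, each running from 250 bases before to 50 bases after the annotated start, and 12327 of the 17148 genes tested had one. The ISRE core was searched as GAAANNGAA and the GAS element as TTCNNNGAA, on both strands, where N is any base. Capitals mark the ISRE core, which reads as its reverse complement where it lies on the strand opposite to the gene. The regions are chr10:89392488-89392549 (plus strand) for *IFIT1*, chr2:6865786-6865834 (plus) for *RSAD2*, chr1:78649752-78649800 (plus) for *IFI44*, chr4:88456975-88457074 (plus) for *HERC5*, chr12:112938442-112938490 (plus) for *OAS3*, chr16:11256289-11256337 (minus) for *SOCS1*, chr4:76023690-76023738 (minus) for *CXCL10*, chr9:5450315-5450369 (plus) for *CD274* and chr21:41420549-41420603 (plus) for *MX1*.
IFIT1: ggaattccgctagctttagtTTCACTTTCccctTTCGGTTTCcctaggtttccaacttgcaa
RSAD2: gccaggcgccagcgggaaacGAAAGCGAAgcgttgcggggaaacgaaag
IFI44: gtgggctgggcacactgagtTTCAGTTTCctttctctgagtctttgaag
HERC5: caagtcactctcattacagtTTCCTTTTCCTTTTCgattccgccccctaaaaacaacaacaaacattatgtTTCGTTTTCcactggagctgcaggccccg
OAS3: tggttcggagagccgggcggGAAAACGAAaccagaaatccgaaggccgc
SOCS1: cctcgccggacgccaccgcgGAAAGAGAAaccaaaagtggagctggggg
CXCL10: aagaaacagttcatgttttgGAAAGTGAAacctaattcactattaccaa
CD274: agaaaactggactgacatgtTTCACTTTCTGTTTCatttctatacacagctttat
MX1: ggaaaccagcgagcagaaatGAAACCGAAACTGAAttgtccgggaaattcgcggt
The first 6 belong to genes that were called higher with log2 fold changes from 1.56 to 4.06, *CXCL10* and *CD274* to genes that IFNγ induces and that were also called higher, and *MX1* to a list member that was not called. The core lay between 12 and 221 bases before the start in these genes, other than in *MX1*, where its first copy began 11 bases after it. *OAS3* holds a second copy farther upstream.

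Over all genes with a promoter, 6.62% held the ISRE core and 6.40% the GAS element. Among the 222 genes called higher that had a promoter, 53 (23.9%) held the ISRE core and 23 (10.4%) the GAS element. Among the 54 genes called lower, 5 (9.26%) held the ISRE core and 2 (3.70%) the GAS element. Both motifs can overlap each other. These shares are a description of letters in a window of 300 bases, and a match does not show that a factor binds there. *DDX58*, *CMPK2*, *STAT2* and *IL4I1* were higher without either motif in the window. *OAS1* held no ISRE core and 1 GAS match. *MX2*, *OAS2*, *IFIT2*, *CCL5*, *OASL* and *USP18* had no promoter to search.

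Of 12 chemokine genes, 3 were higher with siPDL1-1 and none lower, beside 1.73% and 0.385% of all genes. *CXCL10*, which recruits T cells through CXCR3, measured 226 and 261 CPM with siPDL1-1, 69.7 and 72.5 CPM with siPDL1-2, and 285 and 309 CPM with siNC. Here the siPDL1-1 libraries lay near siNC, and siPDL1-2 was the group that stood apart (log2 fold change between the siRNAs 1.76, standard error 0.074, FDR = 7.60e-08). *CXCL11* measured 25.0 and 32.5 CPM with siPDL1-1, 17.2 and 15.6 CPM with siPDL1-2 and 61.7 and 67.2 CPM with siNC. Its log2 fold change of 0.76 (FDR = 0.00184) was lost as a call without siPDL1-2 replicate 1 (FDR = 0.0228), without siPDL1-2 replicate 2 (FDR = 0.0445) and, through the fold change, without siPDL1-1 replicate 2 (log2 fold change 0.58).

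*CCL5*, which recruits T cells and monocytes, behaved differently from both. It measured 12.4 and 13.9 CPM with siPDL1-1, 0 and 0.0661 CPM with siPDL1-2 and 0.262 and 0.166 CPM with siNC. With 731 reads over the siPDL1-1 libraries and 2 over the siPDL1-2 libraries, the ratio was 306 (95% exact binomial interval 84.4 to 2532, for counting error only). The fitted log2 fold change was 3.77, which the pseudocount of 1 CPM makes smaller. *CXCL9*, the other CXCR3 ligand, measured 27.7 and 30.8 against 19.4 and 19.7 CPM and was below the fold change threshold (log2 fold change 0.56).

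Among immune checkpoint and immunosuppressive genes, 4 of 21 tested were higher with siPDL1-1 and none lower, beside 1.73% and 0.385% of all genes. Besides *CD274*, these were *IL4I1*, a secreted amino acid oxidase that restrains T cells, at 10.7 and 10.1 against 0.880 and 0.959 CPM (log2 fold change 2.57), *LGALS9*, which encodes galectin-9, at 82.1 and 75.2 against 35.7 and 41.3 CPM (log2 fold change 1.02), and *NOS2*, the inducible nitric oxide synthase, at 3.94 and 3.67 against 2.11 and 1.62 CPM (log2 fold change 0.75). *IL4I1* shares its region and strand with *NUP62*, which averaged 109 CPM against 5.65 CPM. At an unadjusted p under 0.05, 12 of the 21 were higher and 2 lower, beside 2327 and 2167 of all 17148 genes. The quasi-likelihood test called 4 higher and none lower. *PDCD1LG2*, which encodes PD-L2, measured 20.5 and 20.2 against 18.2 and 16.3 CPM and was not called. *IDO1*, which depletes tryptophan, measured 243 and 233 CPM with siPDL1-1 and 237 and 244 CPM with siPDL1-2, with the ranges overlapping (log2 fold change -0.01, standard error 0.053, FDR = 0.891). The siNC libraries were at 508 and 516 CPM.

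Other classical IFNγ targets were called in unequal shares, beside 1.73% of all genes called higher and 0.385% called lower. None of 15 MHC class II genes was called by limma. Their median log2 fold change was -0.28, with *CIITA*, the master regulator of the class, at 76.2 and 72.0 against 96.6 and 86.5 CPM and *HLA-DRA* at 24.1 and 23.9 against 30.3 and 31.4 CPM. At an unadjusted p under 0.05, 7 of the 15 were lower and 1 higher, beside 2167 lower and 2327 higher of all 17148 genes. The quasi-likelihood test also called none. In MHC class I presentation, *TAP2*, a subunit of the peptide transporter, was the 1 gene called of 20 (732 and 684 against 442 and 448 CPM, log2 fold change 0.67), while *HLA-B* had a log2 fold change of 0.11. Among guanylate binding proteins, *GBP4* was called (221 and 238 against 144 and 131 CPM), and *GBP1* (log2 fold change 0.58) and *GBP5* (0.22) were not. The list of IFNγ-induced enzymes and surface proteins had 6 of 17 genes higher, with *IFI6*, also counted among the antiviral effectors above, first. In this list *SERPING1* (1.10), *GCH1* (0.90), *VCAM1* (0.76) and *LAP3* (0.65) were also called. Its member *SLAMF8* was called with 1.79 and 3.15 against 0.176 and 0.793 CPM, and lost the call in each fit that left out siPDL1-1 replicate 2 (FDR = 0.0429), siPDL1-2 replicate 1 (FDR = 0.0689) or siPDL1-2 replicate 2 (FDR = 0.0114).

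Genes of inflammation and cell death are given beside the 1.73% of all genes called higher. Of 26 NFκB genes, the 3 genes *NFKBIZ* (20.8 and 20.4 against 11.2 and 9.65 CPM), *TNFAIP3* (23.6 and 22.7 against 12.6 and 12.1 CPM) and *NFKBIA* (32.1 and 31.3 against 19.3 and 19.9 CPM) were higher with siPDL1-1. In all 3, siNC lay with siPDL1-1 (18.1 to 33.7 CPM). *TNFSF10*, which encodes the death ligand TRAIL, measured 146 and 156 against 34.6 and 35.5 CPM (log2 fold change 2.07), and there siNC, at 44.3 and 46.5 CPM, lay near siPDL1-2. *MLKL*, which executes necroptosis, and *BAK1*, which permeabilizes mitochondria, had log2 fold changes of 0.84 and 0.72, and they were the 2 genes called of 25 in their list.

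**Figure D3:**
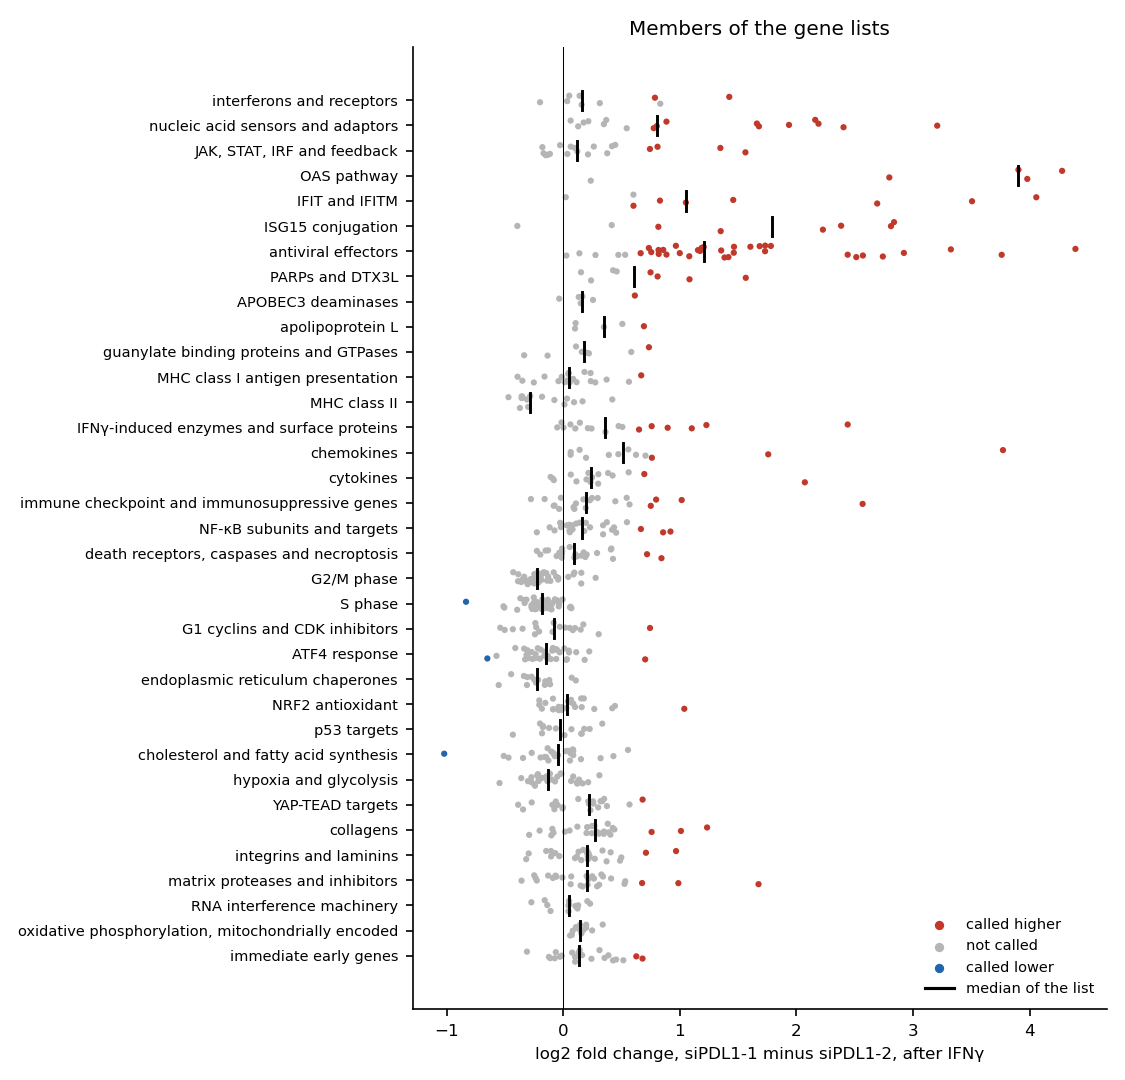
Log2 fold change of siPDL1-1 minus siPDL1-2 after IFNγ (x axis) for each tested member of 35 gene lists (rows), red for called higher, blue for called lower and grey for not called, with a black bar at the median of a list (vertical jitter has no meaning). The OAS and antiviral effector lists reach 4.28 and 4.39, whereas all members of the cell cycle, chaperone and mitochondrial lists lie between -0.83 and 0.74.

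Cell cycle, stress and metabolic lists held at most 2 called genes each, beside 1.73% of all genes called higher and 0.385% called lower. None of 54 G2/M-phase genes passed both thresholds by limma or by the quasi-likelihood test, and 48 had a negative log2 fold change (median -0.23). At an unadjusted p under 0.05, 41 were lower and 2 higher. Over all 17148 genes, 2167 were lower and 2327 higher at that p, which is the background for each such count below. Of 43 S-phase genes, 40 had a negative log2 fold change (median -0.19), and *UNG*, which removes uracil from DNA, was the 1 called (21.9 and 22.6 against 40.2 and 40.7 CPM, log2 fold change -0.83). At an unadjusted p under 0.05, 24 of the 43 were lower and none higher. The 16 endoplasmic reticulum chaperones had a median of -0.23 and none was called by either test, with 11 lower and none higher at an unadjusted p under 0.05. No gene of the RNA interference machinery was called out of 13 by either test (2 higher and 1 lower at an unadjusted p under 0.05), and *AGO2*, the slicing Argonaute, measured 54.5 and 56.7 against 54.5 and 52.7 CPM. The 13 mitochondrially encoded genes were likewise not called, with 8 higher and none lower at an unadjusted p under 0.05. Among 24 antioxidant genes, *HMOX1*, which degrades heme, was called (45.7 and 39.9 against 19.4 and 21.2 CPM). The 36 ATF4-response genes had a median of -0.15, and 9 of them had a positive log2 fold change. At an unadjusted p under 0.05, 19 of the 36 were lower and 2 higher. Of the ATF4-response genes, *ATF3* was higher (0.70) and *CHAC1* lower (-0.65), and each of these calls was lost without siPDL1-2 replicate 2 (FDR = 0.0113 and 0.0918). For *CHAC1* the call was also lost without siPDL1-2 replicate 1 (FDR = 0.0186), siPDL1-1 replicate 1 (FDR = 0.0155) and siPDL1-1 replicate 2 (FDR = 0.0674).

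Extracellular matrix genes are likewise given beside the 1.73% of all genes called higher. Of 26 collagen genes, 21 had a positive log2 fold change (median 0.28) and 3 were called, *COL5A3* (5.48 and 4.80 against 1.47 and 1.75 CPM, log2 fold change 1.23), *COL6A3* (76.8 and 75.0 against 40.1 and 34.5 CPM, 1.01) and *COL1A2* (159 and 139 against 86.4 and 88.3 CPM, 0.76). The collagenase *MMP13* measured 2.72 and 2.87 CPM with siPDL1-1 against 0.117 and 0.264 CPM with siPDL1-2. The integrin subunit *ITGB3* had a log2 fold change of 0.71. Over all genes 49.8% were positive, and no test was run on these lists.

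The lists not yet described held 1 to 3 called genes or none, beside 1.73% of all genes called higher and 0.385% called lower. *APOL6* was the 1 higher of 5 apolipoprotein L genes (491 and 488 against 315 and 290 CPM), and *CCND3*, which encodes a G1 cyclin, the 1 of 19 in its list (129 and 118 against 69.8 and 76.8 CPM). The immediate early factor *KLF6* (100.2 and 104 against 63.4 and 63.0 CPM) and the phosphatase *DUSP5* were 2 of 22. The cytokine *TNFSF13B*, which encodes BAFF, was with *TNFSF10* 1 of 2 called of 16, at 2.41 and 2.12 against 0.880 and 1.16 CPM. The YAP target *CCN2* was 1 of 22, *ITGA11* was with *ITGB3* 1 of 2 called of 27 integrins and laminins, and *ADAMTS12* was with *MMP13* among 3 called of 29 proteases. Of these, *TNFSF13B* lost its call whichever siPDL1 library was left out (FDR = 0.0171 to 0.0705), *ITGA11* without siPDL1-2 replicate 1 or 2 (FDR = 0.0225 and 0.0256), and *CCN2* and *ADAMTS12* without siPDL1-2 replicate 2 (FDR = 0.0151 and 0.0256). *DUSP5* lost it without siPDL1-2 replicate 1 or 2 (FDR = 0.0208 and 0.0232) and, through the fold change, without siPDL1-1 replicate 1 (log2 fold change 0.57). Among 29 hypoxia and glycolysis genes none was called by limma or by the quasi-likelihood test, with 4 higher and 14 lower at an unadjusted p under 0.05, and among 14 p53 targets none was called by either, with 1 higher and 4 lower. These stand beside 2327 higher and 2167 lower of all 17148 genes.

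The 66 genes lower with siPDL1-1 shared no list, since only 3 of them (*UNG*, *CHAC1* and *INSIG1*) belonged to any of the 35. *SRPRA* (ENSG00000182934), a subunit of the receptor that docks signal recognition particles at the endoplasmic reticulum, measured 104 and 102 CPM with siPDL1-1, 272 and 265 CPM with siPDL1-2 and 237 and 235 CPM with siNC. The siPDL1-1 libraries were the ones that stood apart (log2 fold change between the siRNAs -1.37, standard error 0.053, FDR = 3.34e-08). *RMND5A*, a subunit of an E3 ubiquitin ligase complex, measured 14.4 and 15.4 against 40.7 and 41.2 CPM (log2 fold change -1.40). *PAF1*, which names a complex that travels with RNA polymerase II, measured 37.6 and 36.0 against 88.0 and 92.1 CPM (log2 fold change -1.27), and it overlaps the opposite-strand gene *SAMD4B* (mean 128 CPM).

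Among the lower genes named for their size, *INSIG1*, *GPAM* and *GPAT3* act in lipid metabolism. *INSIG1*, which retains the sterol sensor SCAP in the endoplasmic reticulum, measured 87.8 and 93.9 CPM with siPDL1-1, 186 and 185 CPM with siPDL1-2 and 167 and 169 CPM with siNC (log2 fold change between the siRNAs -1.02, FDR = 8.17e-07). *GPAM* and *GPAT3*, acyltransferases of the first step of glycerolipid synthesis, measured 10.5 and 12.2 against 23.3 and 24.3 CPM and 6.38 and 5.32 against 11.1 and 12.1 CPM. The call of *GPAT3* was lost without siPDL1-2 replicate 2 (FDR = 0.0135). These genes were named for the size of their change, and in the list of 29 cholesterol and fatty acid synthesis genes *INSIG1* was the 1 called, beside a median of -0.04. The zinc transporter *SLC39A6* (23.6 and 27.1 against 50.7 and 49.9 CPM) and *AMMECR1* (20.3 and 24.4 against 39.7 and 43.0 CPM) were lower to a like extent.

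For another 3 lower genes it was siPDL1-2 that departed from the control. *GPR1* measured 3.26 and 2.87 CPM with siPDL1-1, 8.85 and 9.55 CPM with siPDL1-2 and 3.95 and 3.51 CPM with siNC (log2 fold change between the siRNAs -1.33). *NOG*, an antagonist of bone morphogenetic proteins, measured 4.80 and 5.08 CPM against 9.32 and 10.9 CPM, with siNC at 5.79 and 4.36 CPM, and *PDGFB*, a growth factor of glioma and mesenchymal cells, 10.1 and 8.47 CPM against 18.5 and 17.3 CPM, with siNC at 10.1 and 8.82 CPM. Each of the latter calls was lost when either siPDL1-2 library was left out (FDR = 0.0153 and 0.0381 for *NOG*, 0.0176 and 0.0115 for *PDGFB*).

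The largest decrease by fold was that of the histone gene *H2AC18*. It had no reads in either siPDL1-1 library and 4.22 and 2.21 CPM with siPDL1-2, so it was at least 28.4-fold lower, taking 3 reads per library as the floor. In unstimulated cells single libraries of both siRNAs had 0 and the others 5.63 and 3.02 CPM, so replicates disagreed. The gene has near-identical copies in its histone cluster, and reads may be split between them. Its call was lost in 6 of the alternatives, with FDR values of 0.022 by the quasi-likelihood test and 0.232 with all 12 libraries, and of 0.0447, 0.0512 and 0.0164 without siPDL1-1 replicate 1, siPDL1-1 replicate 2 and siPDL1-2 replicate 1.

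**Figure D4:**
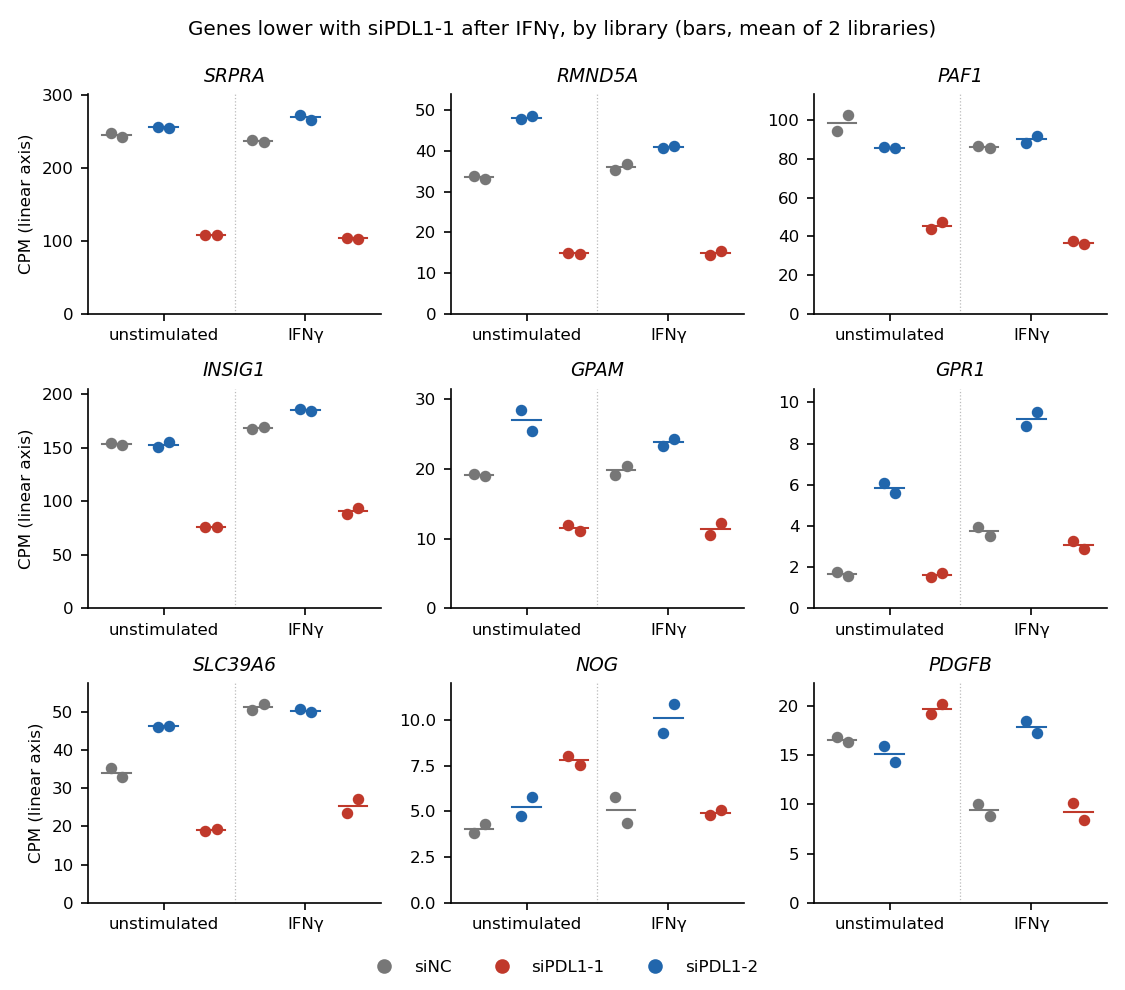
CPM (linear axis from 0) in all 12 libraries for 9 genes called lower with siPDL1-1 after IFNγ, with 1 point per library, a bar at the mean of 2 libraries, and colors for siNC (grey), siPDL1-2 (blue) and siPDL1-1 (red). *SRPRA*, *RMND5A*, *PAF1* and *INSIG1* are low with siPDL1-1 with and without IFNγ, whereas *NOG* and *PDGFB* are lower with siPDL1-1 only after it.

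Whether the siRNAs already differed without IFNγ was read from 4 libraries that the comparison above does not use. Of 17982 genes tested there, 159 (0.884%) were higher with siPDL1-1 and 624 (3.47%) lower, so the balance of directions was the opposite of that after IFNγ. Of the 296 genes higher after IFNγ, 41 (13.9%) were higher without it as well, 3 were lower and 252 were not called, with a median unstimulated log2 fold change of 0.14. Of the 66 genes lower after IFNγ, 30 (45.5%) were lower without it, 1 was higher and 35 were not called, with a median of -0.57. Read the other way, 25.8% of the genes higher without IFNγ and 4.81% of those lower were called in the same direction after it.

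The antiviral genes were already higher with siPDL1-1 in part. Without IFNγ, *OAS1* measured 3.92 and 4.00 CPM with siPDL1-1 and 0.623 and 0.610 CPM with siPDL1-2 (log2 fold change 1.62, FDR = 1.04e-07). *IFIT1* measured 19.5 and 18.8 against 7.76 and 7.32 CPM (1.24) and *IFI44L* 5.74 and 6.05 against 1.27 and 1.62 CPM. *MX2*, *OAS2*, *OASL*, *IFIT2*, *IFIT3*, *ISG15* and *IFI6* were likewise called, with log2 fold changes from 0.72 to 1.27. The pseudocount of 1 CPM makes these values smaller for genes near or below that level. *OAS2*, for example, measured 1.48 and 2.02 CPM with siPDL1-1 against 0.144 and 0.183 CPM with siPDL1-2. By contrast *IFIH1*, *TNFSF10*, *ZBP1* and *USP18* lay between -0.06 and 0.15 and were not called.

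**Figure D5:**
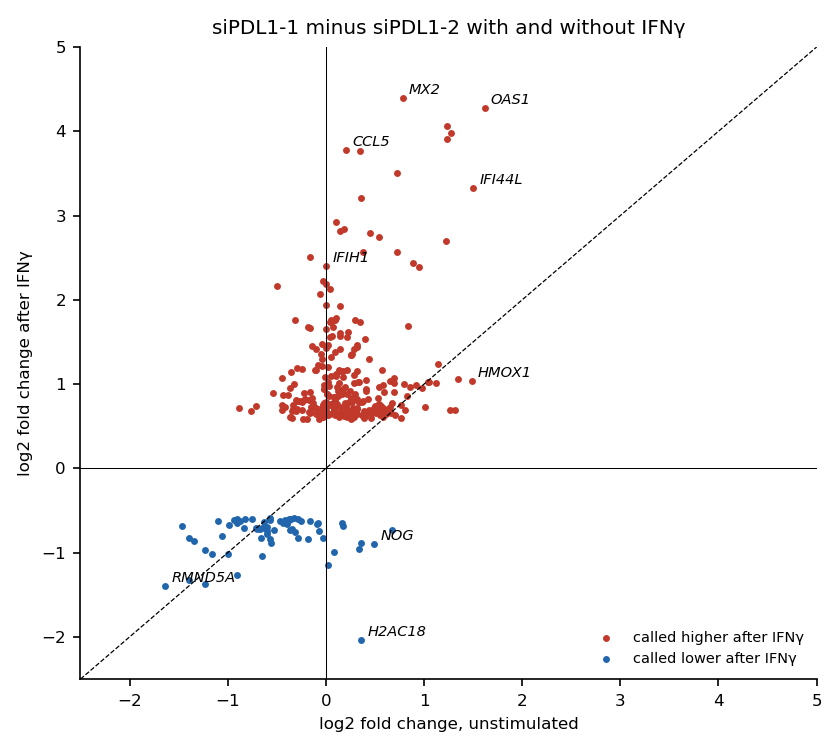
Log2 fold change of siPDL1-1 minus siPDL1-2 without IFNγ (x axis) and with it (y axis) for the 360 genes called after IFNγ outside chromosome Y, red for higher and blue for lower, with a dashed line where both are equal. Of the 295 red points 209 lie right of zero and most are above the line, led by *MX2* and *OAS1*, and of the 65 blue points 56 lie left of zero, many of them near the line. The points were selected by their value on the y axis.

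The dependence of the siRNA difference on IFNγ was tested over all 12 libraries as the difference after IFNγ minus that without it. It was called higher for 777 of 17982 genes (4.32%) and lower for 99 (0.551%). Of the 296 genes higher after IFNγ, 177 were called for a higher difference with IFNγ and none for a lower one, and of the 66 genes lower after IFNγ, 9 were called lower and 1 higher. Both sets were selected by the difference after IFNγ, which is also a term of this test. The direction of these counts was largely set by that selection. The largest values were 3.61 for *MX2* (standard error 0.163), 3.57 for *CCL5* and 3.42 for *RSAD2*, and *DDX58* (2.85), *CMPK2* (2.82) and *IFIT1* (2.82) came next. *MX2*, *CCL5*, *RSAD2* and *CMPK2* did not exceed 1.25 CPM without IFNγ. There the pseudocount shrinks the unstimulated difference, so these values depend on it. By the quasi-likelihood test on reads the value for *RSAD2*, which did not exceed 0.406 CPM without IFNγ, was 0.86 and was not called (FDR = 0.710), and that for *CCL5* was 6.98. For *CD274* it was 1.08 (standard error 0.108, FDR = 9.83e-06), and for *CXCL10* it was 1.70. Among the lower genes named above, the dependence on IFNγ was not called for several, with values of -0.14 for *SRPRA* (FDR = 0.0684), 0.23 for *RMND5A* (FDR = 0.0542), -0.02 for *INSIG1* (FDR = 0.841) and 0.15 for *GPAM* (FDR = 0.397). Among the higher genes it was not called for *COL6A3* (-0.11) and *TNFAIP3* (0.03). For *HMOX1* the difference was smaller with IFNγ than without it (-0.45), which passed the FDR (0.00557) but not the fold change threshold. The number of genes called for this dependence ranged from 545 without siPDL1-2 replicate 2 with IFNγ to 1396 without siPDL1-1 replicate 1 with IFNγ.

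The position of siNC after IFNγ showed which siRNA lay nearer to the control. For 248 of the 296 genes higher with siPDL1-1, the siNC mean was nearer to siPDL1-2, and for 48 it was nearer to siPDL1-1. For 47 of the 66 lower genes it was nearer to siPDL1-2 and for 19 nearer to siPDL1-1. The siNC mean lay between the siPDL1 groups for 154 of the 296 and 37 of the 66. It lay beyond siPDL1-2 for 131 and 24 genes and beyond siPDL1-1 for 10 and 5, so there both siRNAs were on the same side of it. These positions were not counted over all genes. In *GBP4*, *CXCL10*, *NFKBIA*, *TNFAIP3* and *HMOX1* siNC lay nearer to siPDL1-1, and in the antiviral genes with the largest increase it lay nearer to siPDL1-2. For *HMOX1* the siNC values were 35.6 and 32.7 CPM. Both siRNAs were compared with the same siNC libraries, so these positions are given as values and not as a test.

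Markers of other cell types were checked beside these results. Of 11 microglial and macrophage markers, 10 had less than 1 CPM in all 4 libraries, and the eleventh, the lysosomal *CD68*, was higher with siPDL1-1 (74.6 and 80.2 against 46.9 and 50.5 CPM, log2 fold change 0.66). The summed level of this list was 76.1 to 81.0 CPM with siPDL1-1 and 48.0 to 51.3 CPM with siPDL1-2. Of 6 oligodendrocyte markers, 5 were below 1 CPM and *CNP* was higher (271 and 247 against 146 and 161 CPM), with list sums of 247 to 272 and 147 to 162 CPM. *CNP* overlaps the opposite-strand gene *DNAJC7*. Of 10 T and NK cell markers 8 were below 1 CPM and 4 had no reads, with list sums of 5.46 to 7.12 and 5.86 to 6.28 CPM, and endothelial (7.81 to 8.34 and 6.10 to 6.45 CPM) and neuronal lists (28.3 to 29.4 and 32.6 to 34.5 CPM) had no called member. Most immune cell markers were thus below 1 CPM in both groups, but *CD68* and some T and NK cell markers were not. No T or NK cell marker exceeded 6.10 CPM in any of the 12 libraries. Of 12 glioblastoma and astrocytic markers tested, *GFAP* was called (3.80 and 4.28 against 1.99 and 1.92 CPM), and lost its call without siPDL1-1 replicate 2 (FDR = 0.0187), siPDL1-2 replicate 1 (FDR = 0.0254) or siPDL1-2 replicate 2 (FDR = 0.0316), and the list sums were 4378 to 4424 and 5069 to 5233 CPM. Of these 12 markers, 4 had a positive log2 fold change (median -0.11). At an unadjusted p under 0.05, 3 were higher and 6 lower, beside 2327 and 2167 of all 17148 genes. In bulk RNA, fewer cells of a kind and less RNA per cell cannot be told apart.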

How the data were processed

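The data were 12 RNA-seq libraries of U251 cells, 2 for each of 6 groups, grouped by their labels. Per the methods, trimming, mapping to GRCh38 and counting on Ensembl genes, both strands together, were done by the authors in CLC Genomics Workbench. The deposited signal values are the authors' normalized CPM for 45416 genes, with scaling factors of 0.959 to 1.036. In every library 100% of values were whole multiples of 1 read (tolerance 0.01 reads), so reads were recovered. The extraction kit and sequencing instrument differ between the labels and the methods. No column of another sample was present.

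Low genes were removed by filterByExpr applied to those reads (min.count 10, min.total.count 15). Log2(CPM + 1) was fitted with limma 3.58.1 (trend and robust; R 4.3.3), in 3 groups of 2 libraries with IFNγ for the main comparison, and in 6 groups over all 12 libraries for unstimulated cells and for the dependence on IFNγ. FDR values are Benjamini-Hochberg adjusted over all genes tested. Genes were called below an FDR of 0.01 where the fold, on the log2(CPM + 1) scale, was above 1.5. That scale understates changes of low genes. P-values measure the spread between 2 libraries per group. Intervals and floors of 3 reads cover counting error only. Lists were described by counts and medians, without a set test.

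Members and lists were chosen with earlier results of these data known. Named genes were *CD274*, *CXCL10*, *CXCL11* and *IDO1*, the 15 largest changes in each direction among called genes averaging 1 CPM or more with no overlap between groups, up to 3 called genes in each direction per list, and the 5 largest dependences on IFNγ in each direction. Other genes are named as list members or were chosen after their values were seen.

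Alternatives were edgeR 4.0.16 (quasi-likelihood and likelihood ratio tests), DESeq2 1.42.0 (Wald test, size factors), plain CPM, other pseudocounts, filters, samples and thresholds, thinning to 17101069 reads, replicate number as a covariate, and leaving out each library. A crossed replicate covariate was added after seeing the data. On simulated data for the main comparison (17026 genes), 99 of 100 large and 75 of 100 small planted changes were called with 4 other genes, and none with no change planted (17041 genes). Recovered reads of replicates differed by a chi-square of 1.85 to 7.76 per gene, so none was a copy. Promoters were RefSeq's, matched by symbol. Tables and plots were made in Python 3.11.15 (pandas 2.3.3, matplotlib 3.10.9, numpy 2.4.6, scipy 1.17.1). siRNA sequences were not used here. Some items are not reported here.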

Additional observations from a re-analysis of the deposited data

Results flagged for a closer look

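Among the genes named for the size of their change, by the study or for their dependence on IFNγ, 25 of those reported here had a difference between siPDL1-1 and siPDL1-2 that itself differed between IFNγ-stimulated and unstimulated cells, by limma's test of that difference over all 12 libraries. The values are log2 fold changes after IFNγ minus those without it. Genes named for their change after IFNγ were thus selected by a term of this difference. Positive values were found for antiviral genes, *MX2* (3.61), *OAS1* (2.66), *OAS2* (2.67), *OAS3* (2.35), *OASL* (2.71), *IFIT1* (2.82), *IFIT2* (2.78), *RSAD2* (3.42), *CMPK2* (2.82), *IFI44* (2.20), *IFI44L* (1.83), *DDX58* (2.85), *HERC5* (2.65) and *USP18* (2.67). They were also found for the chemokines *CCL5* (3.57), *CXCL10* (1.70) and *CXCL11* (0.73), and for *CD274* (1.08). For *RSAD2* the edgeR quasi-likelihood test gave 0.86 and no call (FDR = 0.710). *OAS1*, *OAS2* and *OASL* were below 1 CPM with siPDL1-2 without IFNγ. The pseudocount shrinks their unstimulated difference and so enlarges their values here. *OAS2*, for example, averaged 1.75 CPM with siPDL1-1 against 0.163 CPM with siPDL1-2 without IFNγ, and 370 against 23.8 CPM with it.

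Negative values were found for 7 of these genes. *NOG* (-1.39), *PDGFB* (-1.24) and the noncoding *AL731533.3* (-1.08) were lower with siPDL1-1 only after IFNγ. The call of *AL731533.3* after IFNγ was lost without siPDL1-2 replicate 1 (FDR = 0.0158) and, through the fold change, with a pseudocount of 5 (-0.55). *TMEM160* (-1.40) was higher with siPDL1-1 without IFNγ and lower with it, at 6.61 and 6.66 against 3.98 and 3.60 CPM and at 7.09 and 6.63 against 11.4 and 12.7 CPM. Its call after IFNγ was lost whichever siPDL1 library was left out (FDR = 0.0192 to 0.0863). *GAGE12J* (-1.37) is 1 of a family of near-identical copies, and its call was lost with no filter (FDR = 0.0150) and without any 1 of 6 libraries (FDR = 0.0103 to 0.0295), namely siPDL1-1 replicates 1 and 2 and siPDL1-2 replicate 2 without IFNγ, and siPDL1-1 replicate 2 and siPDL1-2 replicates 1 and 2 with it. *AL035078.4* (-3.82) and *AC099329.1* (-3.56) share their region and strand with the more abundant *RCN1* (337 CPM) and *HIGD1A* (53.9 CPM). By the quasi-likelihood test *AL035078.4* had -1.85 and no call (FDR = 0.933). The call of *AC099329.1* was lost by that test (FDR = 0.0163), with a pseudocount of 0.1 (FDR = 0.0299), with the replicate block (FDR = 0.0147), and without any single siPDL1 library other than the siPDL1-1 libraries with IFNγ (FDR = 0.0122 to 0.0335). For *AC099329.1* the replicates after IFNγ with siPDL1-1 were 6.24 and 1.74 CPM.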

How the results depend on the processing

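The 362 genes called between the siRNAs after IFNγ became 217 (187 higher, 30 lower) with a pseudocount of 5, 830 (561 and 269) without a fold change threshold, 113 (104 and 9) with a fold change above 2, and 118 lower genes with edgeR's likelihood ratio test. Leaving out 1 library gave 213 to 408 genes (180 to 325 higher, 29 to 83 lower). The dependence on IFNγ was called for 545 to 1396 genes (494 to 1216 higher, 41 to 180 lower) when a library was left out, and for 58 lower genes with no filter. Other counts stayed within 1.5 times, among them 327 genes after thinning and 344 with DESeq2's Wald test. The quasi-likelihood test also called 362, of which 336 were shared. The cause of these shifts was not tested beyond what fewer libraries or another threshold imply. No called gene reversed. Reversals on leaving out a library were those of *IDO1* (log2 fold change -0.045 to 0.015, with 0.0077 without siPDL1-2 replicate 2), *AC099329.1* (-1.03 to 0.38, the latter without siPDL1-1 replicate 2) and the median of p53 targets (-0.068 to 0.060, with 0.0018 in between). Of the 79 named genes called, between 64 and 79 kept their call when a library was left out.

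The replicate differences of 2 groups correlated between -0.299 and 0.363. After IFNγ the correlation was 0.363 between siNC and siPDL1-1, -0.237 between siNC and siPDL1-2 and -0.141 between siPDL1-1 and siPDL1-2. These values do not settle whether libraries of different groups came from the same experiment. The main fit used no pairing. With the replicate block 330 genes were called (274 higher, 56 lower), 780 without IFNγ and 874 for the dependence on it. With crossed numbers, chosen after seeing the data, 414 were called.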

Other observations

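Of the 296 genes higher with siPDL1-1 after IFNγ, 190 were in no list. The following were chosen after their values were seen, and the values are log2 fold changes of siPDL1-1 minus siPDL1-2 after IFNγ, with the unstimulated value second. Many with the largest values are known as interferon-stimulated genes, among them the adaptor *HSH2D* (2.13 and 0.04), the RNA helicase *ZNFX1* (1.74 and 0.34), *TRANK1* (1.75 and -0.32), the ribosomal frameshift inhibitor *SHFL* (1.44 and 0.32), the mitochondrial exoribonuclease *PNPT1* (1.41 and -0.10) and the transcription factor *BATF2* (1.17 and -0.11). *MYD88*, the adaptor of Toll-like and interleukin-1 receptors (0.90 and 0.16), *NOD2*, a sensor of bacterial peptidoglycan (0.94 and -0.02), and the chemokine receptor *CCR1* (1.45 and 0.02) were also called. Other genes were higher in both states, such as the tubulin-binding *STMN3* (1.06 and 1.34), the sphingosine kinase *SPHK1* (1.02 and 1.05), the serine protease *HTRA3* (0.70 and 1.31) and the transglutaminase *TGM2* (1.01 and 0.70).

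Among the 63 genes lower in no list, several were lower in both states, such as the synaptic adhesion gene *NPTN* (-0.81 and -1.06), the epithelial transcription factor *EHF* (-0.83 and -1.40), the neuronal membrane gene *GPM6A* (-0.68 and -1.46) and the prefoldin subunit *VBP1* (-0.68 and -0.98). Cyclin A2 (*CCNA2*, -0.63 and -0.63) and the kinesin *KIF4A* (-0.82 and -0.66) are cell cycle genes outside the S-phase and G2/M-phase lists.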
